A study of Mus musculus with 72 samples.

Results

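PYHIN genes encode a family of interferon-inducible proteins that carry a pyrin domain, which docks onto other pyrin domains, and in most members a HIN domain, which binds DNA. AIM2 is the member best understood: on meeting DNA in the cytosol it assembles the inflammasome with the adaptor ASC and caspase-1. In mice the family has expanded into a cluster on chromosome 1, and its members are among the genes that macrophages and lymphocytes switch on after interferon. Transcripts of 9 PYHIN genes, Pydc3, Pydc4, Mndal, Mnda, Ifi203, Ifi204, Ifi205, Aim2 and Pyhin1, were followed here among 38951 gene names in 4 count tables. The set was chosen by measured values: polysomal Pydc3 was lower 2 h after both drugs than in every other acute group. The values of that group are therefore given below as a description, without a test.

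The cells were B lymphomas of the Eμ-Myc mouse, in which an immunoglobulin heavy chain enhancer drives a Myc transgene in the B lineage. In the acute study, C57BL/6 hosts bearing lymphoma clone 4242, marked with a Gfp retrovirus, received vehicle, CX5461 (35 mg/kg), everolimus (5 mg/kg) or both drugs at these doses on day 10, and lymph nodes, which also hold host cells, were taken after 2 h from 6 mice per group. CX5461 blocks transcription by RNA polymerase I and everolimus blocks the kinase complex mTORC1. In the relapse study, 3 lines per group were grown for 2 to 3 passages from hosts of clone 107, also Gfp-marked, that had succumbed after vehicle (called naive), CX5461, everolimus or both. Each study thus rests on 1 clone, and every group carries the Myc transgene and the retrovirus. From each mouse or line, cytoplasmic (input) RNA and polysomal RNA, carried by 4 or more ribosomes, were sequenced, giving 72 libraries. Total counts ranged from 11.5 to 30.4 M per library. The summed level of 12 B cell markers lay between 2465 and 6235 CPM (the count scaled to the library's TMM-adjusted total) over the 72 libraries. Nodes also held macrophage and monocyte RNA, summed over 14 markers to 600 to 697 CPM in the input RNA of vehicle mice against 5.57 to 7.31 CPM in the naive lines. The input libraries of everolimus mice 1 and 3 differed least of all pairs, by 1.334 times the sampling variance against 2.116 for the next pair. They were kept as 2 mice, and leaving out everolimus mouse 3 changed no count of members called. In such bulk samples fewer cells of a type and less RNA per cell cannot be told apart.

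All 9 genes were in each of the 4 tables. All 9 passed the filter on low counts in the acute input, acute polysomal and relapse polysomal tables, and 8 passed in the relapse input table, where Ifi204 did not. In the mouse genome (GRCm38, GENCODE M21) the members lie on chromosome 1 between 173350879, the start of Aim2, and 174031810, the end of Ifi205. Pydc3 spans chr1:173673675-173698395 on the forward strand and Pyhin1 chr1:173630917-173647928 on the forward strand. The reference tables now call Pydc3, Pydc4, Mnda and Pyhin1 by the symbols Ifi208, Ifi213, Ifi211 and Ifi209. Copies resemble each other, so reads can be shared. Of the 50-base stretches in their annotated transcripts, 72.8% of those of Mnda, 33.7% of Pyhin1, 20.8% of Pydc3, 20% of Ifi204, 19.6% of Mndal, 18.6% of Ifi205, 15.6% of Pydc4 and 12.2% of Ifi203 also occur in another gene. For Aim2 the share was 0.628%. Mnda shared most with Ifi205 (44.7% of its stretches), Pyhin1 with Ifi214 (33.4%) and Pydc3 with Pydc4 (18.1%), so the counts of these genes are uncertain to that extent. The Mndal locus spans Mnda and overlaps Ifi203, with 37 exon bases shared with Ifi203 and 0 with Mnda.

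The promoters are shown because interferon acts on such genes through a short element bound by IRF factors, the interferon-stimulated response element (ISRE), and the family members differ in whether they hold it. Promoters were taken from RefSeq (GRCm38.p6), which gave one for 8 of the 9 genes. The core of the ISRE was searched on both strands as GAAANNGAAA in the 300 bases around each start (250 before, 50 after). It was present in 6 of the 8, in Pydc3, Pydc4, Mndal, Mnda, Ifi203 and Ifi205, and in 1131 of all 32851 promoters (3.44%). Below are the 150 bases before the start, 5′ to 3′ along the gene, with the matched core in capitals, for both Pydc genes, for 2 other members with the core, and for the 2 members without it.
Pydc3 (chr1:173673515-173673664, forward strand): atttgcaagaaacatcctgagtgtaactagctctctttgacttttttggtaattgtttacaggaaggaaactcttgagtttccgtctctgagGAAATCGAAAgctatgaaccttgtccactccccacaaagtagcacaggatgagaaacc
Pydc4 (chr1:173599273-173599422, reverse strand): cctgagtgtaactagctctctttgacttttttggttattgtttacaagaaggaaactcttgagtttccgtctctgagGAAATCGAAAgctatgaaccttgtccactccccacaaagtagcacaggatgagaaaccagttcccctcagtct
Ifi203 (chr1:173942493-173942642, reverse strand): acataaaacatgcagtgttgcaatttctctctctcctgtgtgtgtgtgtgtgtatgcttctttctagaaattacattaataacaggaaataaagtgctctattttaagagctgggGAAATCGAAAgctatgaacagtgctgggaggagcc
Mnda (chr1:173913047-173913196, reverse strand): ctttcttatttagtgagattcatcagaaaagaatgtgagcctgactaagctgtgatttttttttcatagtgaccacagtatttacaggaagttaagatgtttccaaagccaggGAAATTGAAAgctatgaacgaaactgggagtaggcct
Pyhin1 (chr1:173630709-173630858, forward strand): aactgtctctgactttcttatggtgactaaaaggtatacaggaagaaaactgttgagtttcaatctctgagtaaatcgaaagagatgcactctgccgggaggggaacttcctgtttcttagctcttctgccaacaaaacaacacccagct
Aim2 (chr1:173420454-173420603, forward strand): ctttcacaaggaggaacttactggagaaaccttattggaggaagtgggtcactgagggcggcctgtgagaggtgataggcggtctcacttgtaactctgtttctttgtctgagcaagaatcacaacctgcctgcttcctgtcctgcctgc

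The core of Pydc3 lay 58 to 49 bases before its start, that of Pydc4 73 to 64, that of Mndal 36 to 27 and that of Ifi203 35 to 26. These 4 genes had the same 10 bases, GAAATCGAAA, while Mnda and Ifi205 read GAAATTGAAA. The letters GAAATCGAAA were read from the Pydc3 promoter itself, and 16 of the 32851 promoters hold them (0.0487%). Ifi206, Ifi214 and AI607873, further loci of the family, hold them too, so this share is not an independent background. On the opposite strand Ifi205 held a further match just after its start, TTTCACTTTC, and another annotated start of Mndal held TTTCTCTTTC, 54 to 45 bases before it. Another annotated start of Ifi203, not shown above, held no match to the core. The closest stretch in Pyhin1, 79 to 70 bases before its start, read TAAATCGAAA and differed from GAAATCGAAA by G1T, counted from the 5′ end of those 10 bases. The element for interferon gamma (GAS, searched as TTCNNNGAA) was found in none of the 8 promoters and in 8.3% of all. These matches describe letters in a window and not binding.

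**Figure D1:**
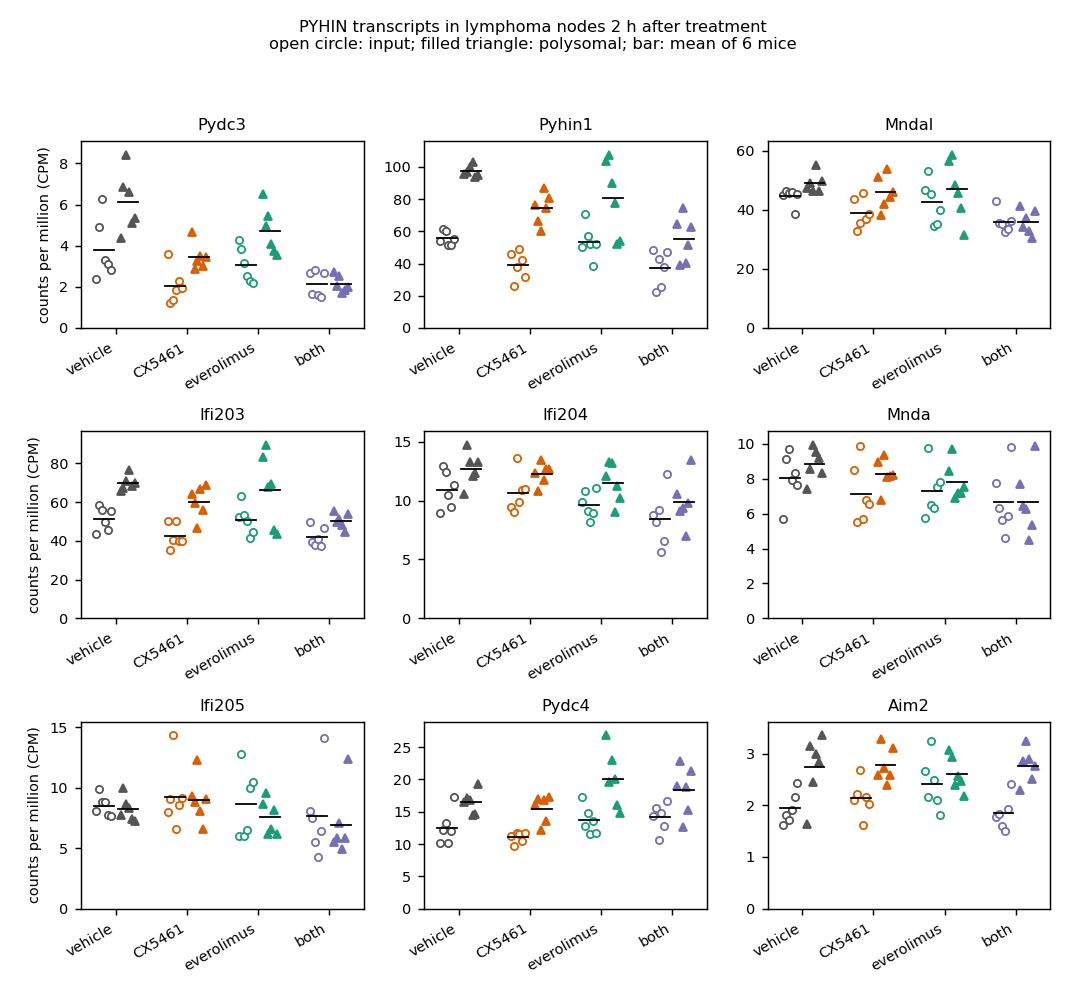
Level of the 9 PYHIN transcripts (CPM, linear axes from 0) in lymphoma nodes of 6 mice per treatment, 2 h after dosing. Open circles are input libraries, filled triangles polysomal libraries and bars group means; the 6 polysomal Pydc3 values under both drugs, 1.70 to 2.73 CPM, lie below those of every other group.

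In vehicle nodes the members spanned a wide range of input levels per kb of exon. Pyhin1 led at 15.7 ± 1.21 CPM per kb (SD, n = 6 mice) and Mndal followed at 12.3 ± 0.813. Ifi203 stood at 7.67 ± 0.907, Mnda at 4.52 ± 0.781, Ifi204 at 3.07 ± 0.444 and Ifi205 at 2.03 ± 0.203. Pydc4 stood at 1.83 ± 0.390, Pydc3 at 0.724 ± 0.285 and Aim2 at 0.554 ± 0.0869. Neighbours in this order overlapped over the 6 mice for Mnda and Ifi204, Ifi205 and Pydc4, and Pydc3 and Aim2, and did not for the others. Pydc3 therefore rests on few reads, 19 to 136 per acute input library.

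After CX5461 alone 1 of the 9 members, Pydc3, passed the threshold, in the polysomal RNA. Polysomal Pydc3 measured 4.39, 6.85, 8.43, 6.62, 5.12 and 5.35 CPM in the 6 vehicle mice. After CX5461 it measured 4.65, 2.88, 3.27, 3.51, 3.00 and 3.45 CPM. The groups overlapped through CX5461 mouse 1 alone, which lay above vehicle mouse 1. The log2 fold change was -0.82 ± 0.17 (SE), with an adjusted p of 0.0245 (edgeR quasi-likelihood test, Benjamini-Hochberg over 15374 genes, threshold 0.05). Of all genes 0.878% passed, 0.709% downward, and DESeq2 called Pydc3 as well. The vehicle and CX5461 values of Pydc3 both entered the choice of the genes, so this test is not independent of that choice and its p supports nothing beyond these values. The call was lost, at an adjusted p of 0.178 and a log2 fold change of -0.89, when the 4 libraries with over 10% of counts on Lars2 and Yam1 (vehicle mice 2, 5 and 6 and CX5461 mouse 6) were left out.

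In the input RNA no member passed after CX5461, where 0.399% of the 16055 genes did. At an unadjusted p below 0.05 there were 3 members, Pydc3, Pyhin1 and Ifi203, beside 9.7% of all genes, and DESeq2 called 0. Input Pydc3 was 2.37 to 6.29 CPM in vehicle mice (median 3.23) and 1.20 to 3.59 after CX5461 (median 1.91), with a log2 fold change of -0.88 ± 0.27 (adjusted p = 0.182, edgeR). The input estimate was thus of the size of the polysomal one, with a wider error. Pyhin1 was 51.6 to 61.7 CPM in the input RNA of vehicle mice and 26.1 to 49.1 after CX5461, 2 ranges that did not meet. Its log2 fold change was -0.52 ± 0.17 (adjusted p = 0.23, edgeR). On polysomes, where 93.8 to 103 CPM stood against 60.1 to 87.0, it was -0.39 ± 0.16 (adjusted p = 0.235, edgeR). Non-overlapping groups in this direction were seen for 0.897% of genes in input and 1.09% in polysomal RNA. Ifi203 had an input estimate of -0.27 ± 0.10 and Mndal one of -0.20 ± 0.10. Ifi204, the mouse relative of the human DNA sensor IFI16, had -0.04 ± 0.14, Ifi205 0.13 ± 0.23, Pydc4 -0.18 ± 0.13, Mnda -0.17 ± 0.17 and the inflammasome sensor Aim2 0.14 ± 0.16. The median estimate of the members was -0.18 in input and -0.09 in polysomal RNA, beside 0.00 and -0.01 for all genes tested.

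Some summed levels of genes listed as markers of other cell types also differed between these groups. The summed input level of 20 T cell markers was 151 to 183 CPM in vehicle mice and 115 to 135 after CX5461, and that of 9 NK cell markers 9.06 to 13.2 and 6.90 to 9.01. In the polysomal RNA the T cell sums were 171 to 222 and 139 to 161 CPM. In the cultured naive lines this list still summed to 81.0 to 89.8 CPM of input RNA. Cd2 (mean 63.1 CPM) and Il7r (15.1 CPM) led it there, so the sum does not measure T cell RNA alone. Macrophage and monocyte markers summed to 600 to 697 and 603 to 846 CPM in the input RNA. No marker of these 3 lists was at 0 in all libraries of either group, and their part in the lower level of Pydc3 was not tested.

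Everolimus alone moved no member past the threshold, where 0.106% of genes passed in input and 0.15% in polysomal RNA. At an unadjusted p below 0.05 edgeR listed 1 member in each fraction, Aim2 in the input (0.32 ± 0.15) and Pydc3 in the polysomal RNA (-0.38 ± 0.17), beside 14.4% and 10.9% of all genes, and DESeq2 called 0 in both. Polysomal Pydc3 was 6.54, 4.97, 5.43, 4.07, 3.73 and 3.56 CPM, within and below the vehicle values. Polysomal Pyhin1 split widely within this group, from 52.4 and 53.8 CPM in mice 5 and 6 to 104 and 108 in mice 1 and 2. Polysomal Ifi203 did likewise, with 45.7 and 43.4 CPM in mice 5 and 6 and 83.2 and 89.5 in mice 1 and 2. Pydc4 had the highest polysomal estimate, 0.29 ± 0.14 (adjusted p = 0.461, edgeR).

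**Figure D2:**
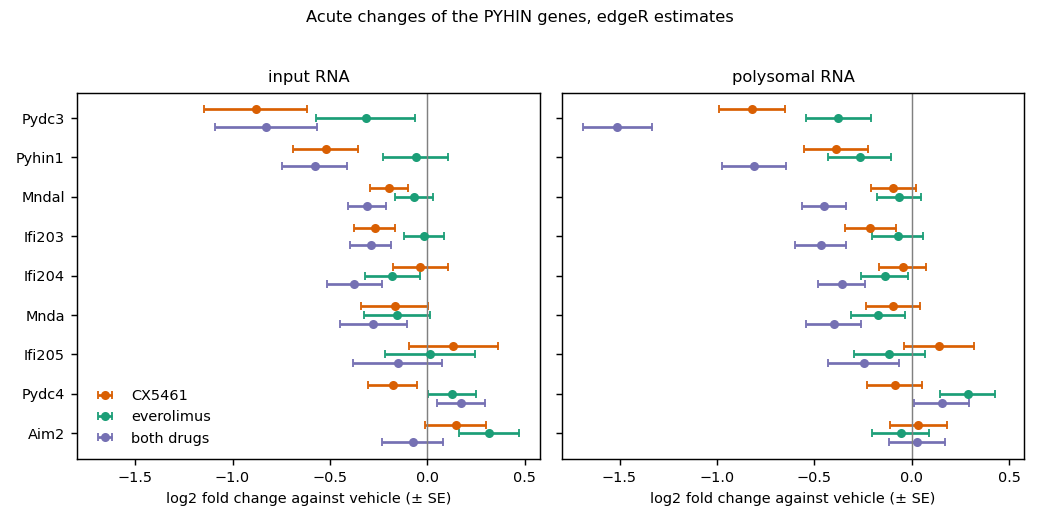
Log2 fold change against vehicle of each PYHIN gene (points, edgeR estimates; bars, ± 1 SE) after CX5461, everolimus or both drugs, in input (left) and polysomal (right) RNA. Under both drugs polysomal Pydc3 stands lowest at -1.51, and polysomal Pydc4 and Aim2 lie at 0.15 and 0.03.

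Under both drugs polysomal Pydc3 measured 2.73, 2.04, 2.52, 1.70, 1.83 and 2.01 CPM. Every one of these libraries lay below all 18 others of that fraction, the pattern by which the genes were chosen, which 0.0195% of genes showed. The lowest value outside the group was 2.88 CPM, in CX5461 mouse 2. The log2 fold change was -1.51 ± 0.18 against vehicle, -0.69 ± 0.18 against CX5461 and -1.13 ± 0.18 against everolimus. In the input RNA, where 0.00623% of genes showed the pattern, Pydc3 did not: it was 1.48 to 2.80 CPM, with -0.83 ± 0.26 against vehicle, 0.05 ± 0.28 against CX5461 and -0.51 ± 0.27 against everolimus. The drug interaction of Pydc3, by which the combination departs from the sum of both single-drug changes, was -0.31 ± 0.25 in the polysomal and 0.37 ± 0.38 in the input RNA.

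Other members were lower under both drugs to a lesser degree. Polysomal Pyhin1 was 64.8, 39.2, 74.6, 40.1, 51.7 and 62.8 CPM, all below the vehicle range, with -0.81 ± 0.16. Ifi203 had -0.47 ± 0.13 and Mndal -0.45 ± 0.11, also without overlap with vehicle, which 1.25% of genes showed in this direction. Mnda (-0.40 ± 0.14), Ifi204 (-0.36 ± 0.12) and Ifi205 (-0.25 ± 0.18) overlapped with vehicle, and combination mouse 6 held the highest value of the group for each of the 3. Pydc4 (0.15 ± 0.14) and Aim2 (0.03 ± 0.15) were not lower, with estimates near 0 for their SE. In the input RNA the estimates against vehicle were -0.58 ± 0.17 for Pyhin1, -0.31 ± 0.10 for Mndal, -0.29 ± 0.10 for Ifi203, -0.38 ± 0.14 for Ifi204 and 0.17 ± 0.12 for Pydc4. T cell markers summed to 129 to 179 CPM in the polysomal RNA of this group against 171 to 222 in vehicle, and NK cell markers to 5.64 to 9.10 against 11.03 to 14.6. Macrophage and monocyte markers summed to 713 to 803 against 746 to 863 CPM. Their part was not tested.

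Of 3 further loci of the family counted in the acute study, 2 passed the filter on low counts and Ifi202b, with no count in the vehicle mice, did not. AI607873, now Ifi207, had 0.29 ± 0.12 (adjusted p = 0.232, edgeR) after CX5461 in the polysomal RNA and 0.02 ± 0.12 under both drugs. BC094916, which the reference tables pair with no locus, had -0.50 ± 0.17 (adjusted p = 0.139, edgeR) and -0.80 ± 0.17.

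The polysomal level relative to the input was tested in vehicle nodes, with the 2 libraries of a mouse paired through a block. Of the 9 members 4 differed between the fractions, where 56.9% of 16421 genes did. Pyhin1 was higher on polysomes (0.51 ± 0.09, adjusted p = 2.66e-05, edgeR) and so was Pydc3 (0.42 ± 0.11, adjusted p = 0.00153, edgeR), whose vehicle values had entered the choice of the genes. Ifi205 (-0.35 ± 0.12, adjusted p = 0.0132, edgeR) and Mndal (-0.16 ± 0.06, adjusted p = 0.016, edgeR) were lower. Each fraction is scaled to its own total, so these values are relative to the average transcript. Normalized within each fraction, Mndal stood at 44.6 CPM in input and 49.0 CPM in polysomal RNA. That is the other direction, so the sign for Mndal rests on the joint scaling of both fractions in this fit. Ifi205 stood at 8.50 CPM in input and 8.23 CPM in polysomal RNA, so most of the size of its estimate rests on that scaling too. The call of Pydc3 was lost without the block (adjusted p = 0.149), and those of Ifi205 and Mndal were lost both then and without the 6 mice that had a library dominated by a few genes. With no filter on low counts Mndal was lost as well (adjusted p = 0.0684, edgeR). The change of this ratio with a drug, the translational efficiency, passed for no member after CX5461 or everolimus by edgeR, with 0 members at an unadjusted p below 0.05, and for 0 of 16421 genes in all. For Pydc3 it was 0.08 ± 0.17 after CX5461 and -0.07 ± 0.16 after everolimus. Under both drugs, given as a description, it was -0.71 ± 0.17 for Pydc3, -0.22 ± 0.13 for Pyhin1 and -0.18 ± 0.11 for Ifi203, and 0.02 ± 0.11 for Ifi204.

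**Figure D3:**
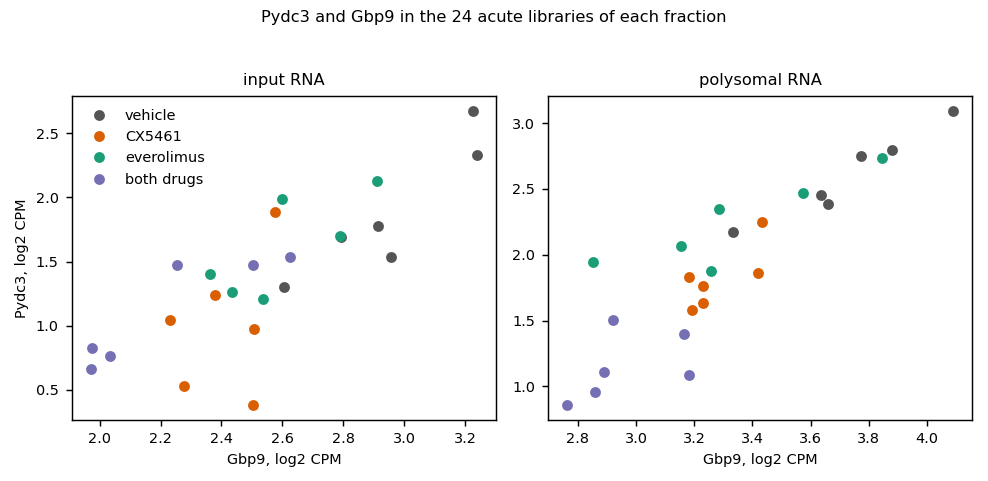
Pydc3 against Gbp9 (both log2 CPM) in the 24 input (left) and 24 polysomal (right) acute libraries, coloured by treatment. Low Pydc3 goes with low Gbp9 in both panels (r of 0.735 and 0.808 after treatment means were subtracted; Gbp9 was chosen for this likeness), and in the polysomal panel the 6 libraries under both drugs lie lowest for Pydc3.

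The genes whose level varied most like that of Pydc3 across the acute libraries were named by their correlation. After the treatment means were subtracted, the genes with the highest mean of the input and polysomal correlations (Pearson, 24 libraries each, 15192 genes, genes with a clone name left out) included Gbp9, Slfn5, Ifit3, Ifit1, Trim30a, Zbp1 and Tgtp2. For Gbp9, which encodes an interferon-induced guanylate-binding GTPase, r was 0.735 over the input and 0.808 over the polysomal libraries. Of the family, Ifi203 ranked 39, Mndal 44, Pyhin1 46, Mnda 232 and Ifi204 235, and Pydc4 (1708), Ifi205 (3908) and Aim2 (4326) far lower. Libraries of a mouse share their tissue and all share the scaling to a total, so these are descriptions.

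Around the family, the genes of the pathway moved as follows after CX5461. Of 33 interferon-stimulated genes outside the family, 11 fell in input RNA, where 0.386% of genes fell, and 12 in polysomal RNA, where 0.709% did, with medians of -0.58 and -0.57. None of the 33 rose. Among them the antiviral enzyme gene Oas3 had -0.93 ± 0.18 (adjusted p = 0.0209, edgeR) in the input. Of 17 interferon receptor and signalling genes 4 fell in the input, including Irf7 (-0.78 ± 0.14, adjusted p = 0.0209, edgeR) and Irf9 (-0.49 ± 0.10, adjusted p = 0.0315, edgeR), which encode factors that act on the ISRE, and 3 fell on polysomes. Of 14 inflammasome and pyroptosis genes 0 passed in the input by edgeR, with 0 at an unadjusted p below 0.05, and of 15 on polysomes 0 passed, with 2 at that p. DESeq2 called 0 in both. Of 12 genes of cytosolic DNA sensing 0 passed in the input by edgeR, with 2 at an unadjusted p below 0.05 and 1 called by DESeq2, and 1, the nucleic acid sensor gene Zbp1, fell on polysomes (-0.82 ± 0.19, adjusted p = 0.0391, edgeR). After everolimus 0 of the 76 genes of these 4 lists passed in the input by edgeR, with 19 at an unadjusted p below 0.05, all lower, beside 14.4% of all genes, and 1 called by DESeq2. On polysomes 0 of 77 passed, with 15 lower and 2 higher at that p, beside 10.9% of all genes, and 0 called by DESeq2. The median of the interferon-stimulated genes was -0.26 in both fractions. Under both drugs, the contrast that the choice of the genes used, the medians were -0.79 in input and -0.77 in polysomal RNA, given as a description. The interferon genes themselves were nearly silent, 9 listed genes summing to at most 0.539 CPM in any acute input library.

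**Figure D4:**
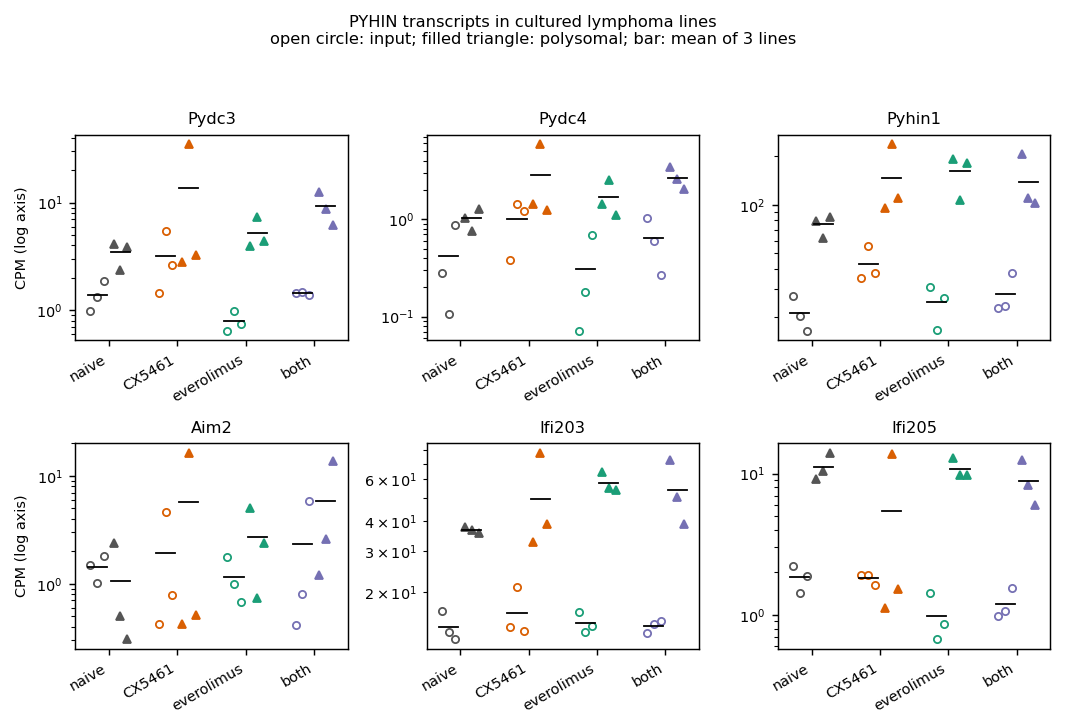
Level of 6 PYHIN transcripts (CPM, log axes) in the 12 cultured lines, 3 per treatment; open circles are input libraries, filled triangles polysomal libraries and bars group means. The polysomal library of CX5461 line 20 stands highest for Pydc3 at 34.8 CPM, and those of CX5461 lines 14 and 39 are lowest for Ifi205 at 1.12 and 1.52 CPM.

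In the relapse lines, another clone and other mice than those that chose the genes, Pyhin1 was higher in the input RNA of CX5461 lines. It measured 27.3, 20.4 and 16.5 CPM in naive lines 6, 33 and 38 and 35.1, 55.6 and 37.9 CPM in CX5461 lines 14, 20 and 39. All 3 CX5461 lines lay above all naive lines, a separation whose share over all genes was not counted in the relapse study. The log2 fold change was 1.00 ± 0.28 (adjusted p = 0.0474, edgeR over 14474 genes), 1 of 8 members tested where 8.37% of genes passed, 4.61% upward. The call sat at the threshold: it was lost with RLE size factors (adjusted p = 0.0516), with the compared groups alone (0.0612), and when any one of naive lines 33 or 38, CX5461 lines 14, 20 or 39, everolimus lines 4 or 26 or combination lines 8 or 9 was left out, with a log2 fold change from 0.77 to 1.12 in those fits. The other 7 members did not pass. Input Pydc3 was 0.974, 1.32 and 1.85 CPM in naive and 1.45, 5.43 and 2.61 in CX5461 lines, with 1.18 ± 0.43 (adjusted p = 0.119, edgeR).

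In everolimus and combination lines 0 of the 8 members passed in the input RNA, where 11.7% and 13.5% of genes did. At an unadjusted p below 0.05 these were Ifi205 and Mndal for everolimus and Mndal for the combination, beside 30.8% and 30.5% of all genes, and DESeq2 called 0. Ifi205 was 1.43, 0.672 and 0.868 CPM in everolimus lines against 2.23, 1.43 and 1.89 in naive lines (-0.92 ± 0.35, adjusted p = 0.101, edgeR). Mndal had -0.53 ± 0.23 in everolimus and -0.60 ± 0.23 in combination lines. Input Pydc3 was lower in everolimus than in CX5461 lines, 0.641, 0.986 and 0.744 CPM (-1.97 ± 0.46, adjusted p = 0.0403, edgeR, where 4.04% of genes passed). That comparison was chosen after its value was seen, and leaving out naive line 33 or any treated line, or fitting the compared groups alone, ended the call (-2.30 to -1.32, adjusted p of 0.0507 to 0.146).

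In the polysomal RNA no member passed in CX5461, everolimus or combination lines, where 19.5%, 0.115% and 10% of genes did. At an unadjusted p below 0.05 edgeR listed Pydc3, Pydc4 and Pyhin1 for CX5461, Pyhin1 for everolimus, and Pydc4 and Pyhin1 for the combination, beside 37.4%, 8.5% and 25.7% of all genes. DESeq2 called Pydc3 and Pyhin1 for CX5461 and 0 for the others. Pyhin1 was 79.8, 62.3 and 84.7 CPM in naive lines and higher in all 9 treated lines, from 95.5 to 237 CPM. Its estimates were 0.96 ± 0.38, 1.09 ± 0.39 and 0.88 ± 0.38, and the share of all genes with such a separation was not counted. Pydc3 was 4.10, 2.35 and 3.91 CPM in naive lines, 12.6, 8.77 and 6.25 in combination lines, and 2.78, 34.8 and 3.28 in CX5461 lines.

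The 3 polysomal libraries of the CX5461 group differed widely from each other. Line 20 was the highest of all 12 for Pydc3 (34.8 CPM), Pydc4 (5.86), Pyhin1 (237), Ifi203 (77.7), Mndal (102) and Aim2 (16.4). Lines 14 and 39 were the lowest of all 12 for Ifi205 (1.12 and 1.52 CPM), Mnda (1.20 and 1.25) and Mndal (18.6 and 23.9). Their columns alone form run 3 of the deposited polysomal counts, and line 20 lies in run 1. A run starts where the alphabetical order of the columns starts again. Line and run thus cannot be told apart here, and the share of all genes with these extremes was not counted. In the input RNA of lines 14 and 39 Ifi205 (1.92 and 1.62 CPM) and Mndal (18.7 and 17.6) lay within the range of the other libraries. A fit without the polysomal libraries of lines 14 and 39 leaves line 20 as the lone CX5461 library, so no calls are read from it. Without line 20, 3 members passed (Ifi205, Mnda and Mndal), those lowest in lines 14 and 39. The share of all genes passing in that fit was not counted.

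Aim2 stood apart in single lines. Its input level was 4.62 CPM in CX5461 line 20 and 5.86 in combination line 31, against 0.416 to 1.81 in the other 10 lines. On polysomes it was 16.4 and 13.9 CPM in these 2 lines and 0.305 to 5.01 in the others. No group comparison of Aim2 passed (adjusted p of 0.251 to 0.989 in the polysomal RNA, edgeR). Of the inflammasome genes around Aim2, 4 of 8 rose in the polysomal RNA of CX5461 lines, among them the ASC gene Pycard (1.51 ± 0.21, adjusted p = 0.00326, edgeR), where 11.4% of genes rose. In combination lines 3 of 8 rose, where 4.78% of genes did.

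In the naive lines 5 of 9 members were higher on polysomes than in the input, where 23% of 15637 genes were higher and 44.1% differed in either direction. They were Mnda (2.01 ± 0.43, adjusted p = 0.00323, edgeR), Ifi205 (1.93 ± 0.56), Pyhin1 (1.18 ± 0.28), Mndal (1.04 ± 0.35) and Ifi203 (0.70 ± 0.19). The median of the members was 0.87 beside -0.10 for all genes. Ifi205 and Mndal were lower on polysomes in vehicle nodes by the joint scaling, which gave the sign for Mndal and most of the size for Ifi205. Both were thus on the opposite side in the cultures. This difference was not tested across the 2 studies. Without naive line 33 Mnda and Pyhin1 passed, and without naive line 38 Mnda alone. With no block Mndal was lost (adjusted p = 0.0807, edgeR). The translational efficiency of 0 members, and of 0 of 15637 genes, changed in any relapse group by edgeR. At an unadjusted p below 0.05 there were 2 members for CX5461 (Mnda, -1.90 ± 0.62, and Ifi205, -1.98 ± 0.82), 4 for everolimus and 2 for the combination, beside 20.8%, 10.5% and 3.7% of all genes.

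**Figure D5:**
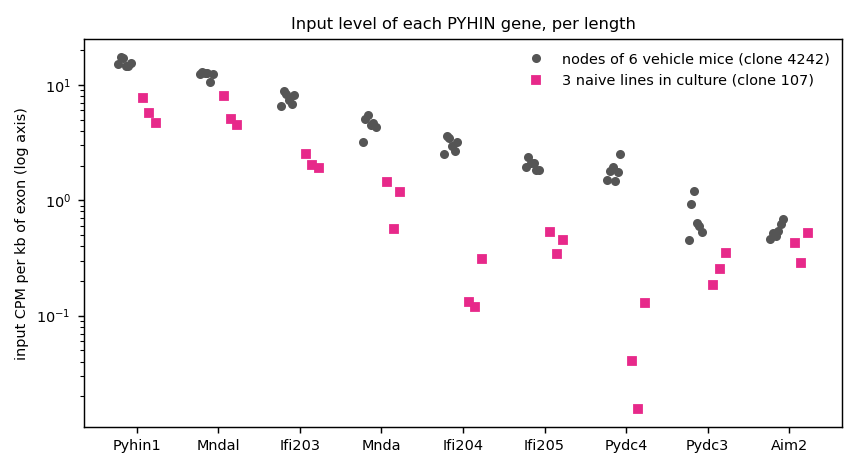
Input level per kb of exon (CPM per kb, log axis) of each PYHIN gene in the nodes of 6 vehicle mice and in 3 naive lines. Pydc4 and Ifi204 lie more than 10-fold lower in the lines, while the ranges of Aim2 overlap.

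The members differed in how much of the node level was seen in the cultured lines. The clone, the setting and the table all differ, so the levels are set side by side without a test. Input Pydc4 was 12.5 ± 2.67 CPM (SD, n = 6) in vehicle nodes and 0.422 ± 0.407 (n = 3) in naive lines, a ratio of 29.7. Ifi204 was 10.9 ± 1.58 and 0.663 ± 0.380, a ratio of 16.5. AI607873 was 9.38 ± 1.34 and 0.206 ± 0.318, with 0 to 13 counts per naive library. The ratio was 4.59 for Ifi205, 4.27 for Mnda, 3.59 for Ifi203, 2.75 for Pydc3, 2.61 for Pyhin1, 2.09 for Mndal and 1.35 for Aim2. On polysomes the order differed: Mndal (49.0 CPM in nodes, 67.4 in lines), Mnda (8.82 and 11.5) and Ifi205 (8.23 and 11.2) were no lower in the lines, while Pydc4 (16.5 and 1.02) and Ifi204 (12.7 and 1.15) were again more than 10-fold lower. Most other lists differed in the same direction in the input RNA. The 33 interferon-stimulated genes outside the family summed to 587 to 748 CPM in the nodes and 74.9 to 84.5 CPM in the lines. Macrophage and monocyte markers went from 600 to 697 CPM to 5.57 to 7.31 CPM, and NK cell markers from 9.06 to 13.2 CPM to 0.278 to 2.38 CPM. Endothelial and stromal markers went from 1094 to 1473 CPM to 29.5 to 41.4 CPM. T cell, dendritic cell, neutrophil and erythroid markers were lower in the lines as well. B cell markers overlapped, at 3432 to 3625 CPM and 3206 to 3926 CPM. The part of any of these lists in the member levels was not tested.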

How the data were processed

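RNA was measured in 72 libraries. The authors deposited 4 tables of raw counts per gene symbol, which per the submitters' processing notes came from TopHat2 and HTSeq on GRCm38; versions, annotation and strand setting are not given in the sources used here. All sample columns were used and rows that name no gene were left out (no feature took 6.07 to 19.7% in the acute input).

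Each table was fitted with edgeR 4.0.16 (R 4.3.3): TMM, filterByExpr, quasi-likelihood test over all 4 treatments, Benjamini-Hochberg adjustment over all genes tested (16055, 15374, 14474 and 14797) at 0.05. SE is the estimate's size divided by the root of its F value; log2 CPM has a prior count of 2. Polysomal against input used both fractions with a block on mouse or line. Whether lines or mice came from separate experiments is not stated, so p-values measure the spread between these samples. Exon lengths, shared stretches and loci came from GENCODE M21. Fits were tested on simulated data. The members, gene lists and naming rule (all 9 members, called list genes by smallest p and the 8 genes most like Pydc3) were chosen with earlier results of these data known. One of those 8 is not reported here. Alternatives were DESeq2 1.42.0, RLE, no filter, the compared groups alone, blocks, and left-out libraries. The libraries dominated by a few genes, CX5461 lines 14 and 39 and the run of columns were singled out after seeing the data.

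Replicate numbers are not stated to pair mice across treatments and were not used to pair them. Libraries of different treatments with the same number had a mean correlation of 0.012 (input, -0.56 to 0.378) and -0.026 (polysomal, -0.476 to 0.368). These means show no likeness on average and cannot exclude that mice were matched.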

Additional observations from a re-analysis of the deposited data

Results flagged for a closer look

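Mndal in the input RNA of vehicle mouse 5 was 5.28 log2 CPM, and the other 5 vehicle mice lay between 5.50 and 5.54. The gap to the nearest of them took 0.831 of the whole range of the group. Of 72 groups of 6 mice examined this was the only one flagged. With 72 groups examined such a gap can arise by chance, and no conclusion is drawn from it.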

How the results depend on the processing

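Counts of members passing the threshold moved in few acute fits and in many relapse fits, and the cause was not tested. After acute CX5461 in the polysomal RNA the count of 1 became 2 (Pydc3 and Pyhin1) with the 2 compared groups alone and 0 without the 4 libraries dominated by Lars2 and Yam1. For relapse CX5461 lines the input count of 1 became 0 with RLE, 0 with the compared groups alone, and 0 to 1 when 1 line was left out. With the run of columns as a term, chosen after seeing the data, the input counts of 0 became 2 for everolimus (Ifi205 and Mndal) and 2 for the combination (Mndal and Pyhin1). In the relapse polysomal RNA the count of 0 for CX5461 became 2 with DESeq2, 4 without CX5461 lines 14 and 39, 4 with the run term and 0 to 3 with 1 line left out. For everolimus it became 1 with the compared groups alone and 2 with the run term. For the combination it became 3 with the compared groups alone, 3 without CX5461 lines 14 and 39, 4 with the run term and 0 to 4 with 1 line left out. For polysomal against input RNA the vehicle count of 4 became 1 with no replicate block on mouse or line and 2 without the 6 mice with a dominated library, and the naive count of 5 became 1 to 5 with 1 line left out. A block on the replicate number, which is not stated to pair mice, gave acute Pydc3 after CX5461 at -0.82 (adjusted p = 0.0164, edgeR) and changed no count of members called. These Pydc3 values entered the choice of the genes, so that p supports nothing beyond them. Fewer samples enter each fit that leaves libraries out, and the share of all genes passing in these alternative fits was not counted. Pydc3 had 19 to 136 counts per acute input library, which limits its precision, and 3 lines per group limit the relapse comparisons.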
